A study of Rattus norvegicus with 4 samples.

Results

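The genes described here are the integrins and laminins, 35 of the 33778 genes and loci in the deposited tables, chosen by gene symbol alone. They comprise 17 integrin alpha subunits, 8 integrin beta subunits, 4 laminin alpha chains, 3 laminin beta chains and 3 laminin gamma chains. The cells are H9C2, an established line from the heart of a rat embryo. RNA libraries came from 2 samples given 100 µM PAGln (phenylacetylglutamine, which the body makes by joining glutamine to phenylacetate from gut bacteria) for 48 h and from 2 control samples without it, called PAGln 1, PAGln 2, control 1 and control 2. The labels speak of sequencing in triplicate, while 2 libraries a group were analysed here. Nothing in the labels ties the repeats to separate cultures, and p-values therefore rest on a spread among libraries that may be only technical. Levels are FPKM, fragments scaled to gene length and library depth, so levels of genes of different length can be set side by side.

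Integrins are the main receptors through which cells hold on to the extracellular matrix. Each is a pair of an alpha and a beta subunit, and the alpha subunit largely sets which ligand is bound: laminin, collagen, or proteins such as fibronectin and vitronectin that carry the peptide motif RGD. Laminins are large secreted trimers of an alpha, a beta and a gamma chain that build the basement membrane around muscle fibres, vessels and epithelia. In skeletal and cardiac muscle the laminin receptor formed by Itga7 and Itgb1 links the basement membrane to the cytoskeleton.

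The libraries held from 13507110 to 13585802 reads with PAGln and from 14934592 to 14984712 in controls. The labels call the cells cardiac myocytes, but of 6 cardiomyocyte markers only Tnnt2 reached a mean of 1 FPKM (157 FPKM), and Tnni3, Myh6, Myh7, Actc1 and Actn2 lay between 0.0113 and 0.348 FPKM. Of 6 myoblast markers Ncam1 (109 FPKM), Cdh15 (91.2 FPKM), Myod1 (40.5 FPKM) and Des (4.76 FPKM) were present. Myf5 was listed at 0 and Chrna1 had 0.0361 FPKM. Smooth muscle markers were present too: Acta2 (3843 FPKM), Tagln (994 FPKM), Cnn1 (88.5 FPKM) and Myh11 (2.58 FPKM). Of 5 fibroblast markers Col1a1 (2977 FPKM) and Thy1 (348 FPKM) were high. Pdgfra (0.0159 FPKM) and Tcf21 (0.0136 FPKM) were near 0, and Dcn was listed at 0. Of 7 leukocyte markers Cd14 (15.9 FPKM) and Cd3e (1.16 FPKM) reached 1 FPKM, while Ptprc, the pan-leukocyte phosphatase, had 0.0102 FPKM and Tyrobp was listed at 0. The leukocyte markers summed to 18.7 and 17.9 FPKM in the PAGln libraries and to 17.3 and 19.2 FPKM in the controls. None of the 5 endothelial or 4 platelet markers, and only Krt8 of the 6 epithelial markers, reached 1 FPKM. A value near 0 is not always absence: Hprt1, a gene that all cells use, had 24.8 FPKM in PAGln 1 and 0.780 FPKM in PAGln 2, against 25.4 FPKM in control 1 and 0.504 FPKM in control 2. In such bulk RNA, fewer cells that express a gene and less of its RNA per cell cannot be told apart.

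Integrin RNA in these cells was led by Itgb1 and the laminin-binding alpha subunits, and laminin RNA by Lama5 and Lamc1. Itgb1, the common beta subunit, averaged 836 FPKM across the 4 libraries, which placed it at rank 45 of all genes and loci. Itga7 (188 FPKM), Itga3 (113 FPKM) and Itga6 (43.7 FPKM), the laminin-binding alpha subunits, held 54.5% ± 4.12 of all integrin alpha FPKM in PAGln libraries and 54.6% ± 3.20 in control libraries (SD, n = 2 each). Lama5 (166 FPKM) held 94.8% of laminin alpha FPKM with PAGln and 95.1% in controls, with Lamb1, Lamb2 and Lamc1 as the matching chains. With PAGln, 0 of the 20 members tested passed the threshold. The members tested are those with a mean of at least 1 FPKM, and 15 lay under it.

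**Figure D1:**
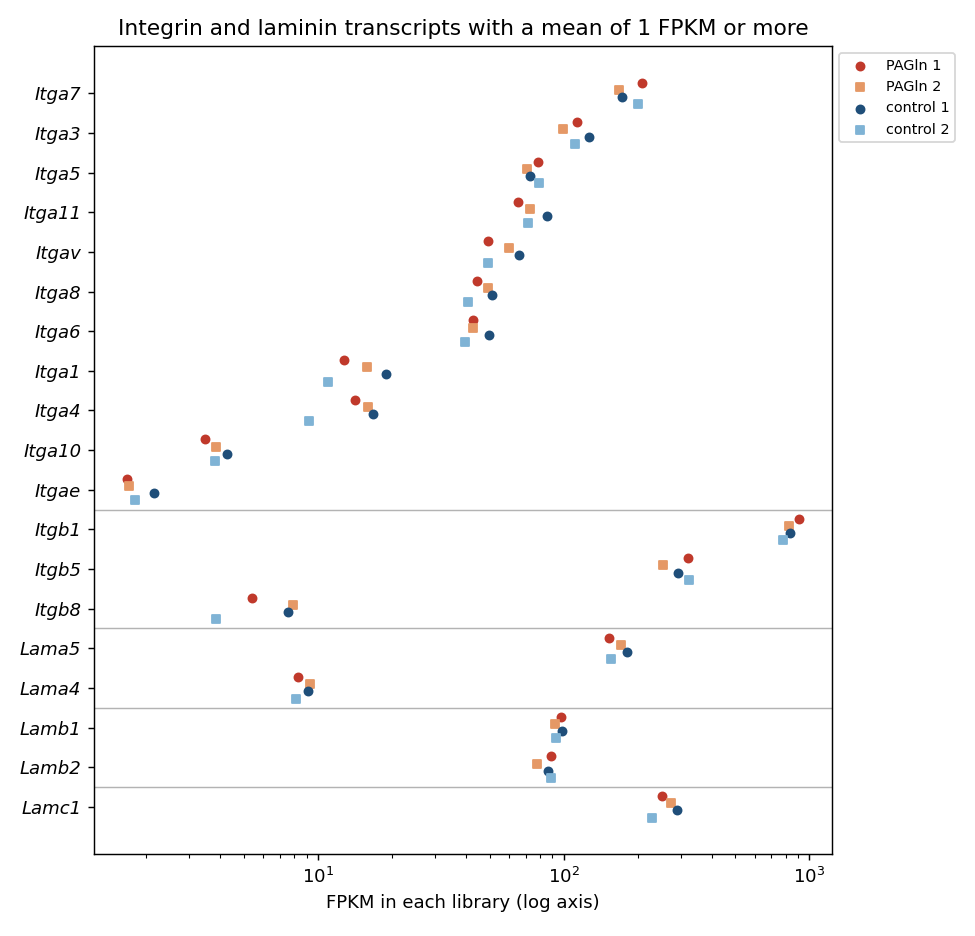
FPKM of 19 integrin and laminin genes with a mean of at least 1 FPKM, 1 point per library on a log axis, grouped by role and ordered by mean. Itgb1 sits at 781 to 905 FPKM, and the PAGln and control points of 18 of the 19 genes overlap.

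The stretches of DNA before the start sites of 4 members are shown because these genes span the range of levels: Itgb1, Lamc1 and Lama5 lead their roles, and Lama2, the alpha chain of the laminin of mature muscle, had 7 reads in all 4 libraries. The sequences are the 250 bases before the gene start in RefSeq, build GRCr8, 5′ to 3′ on the gene's strand, and capitals mark GC boxes, the letters GGGCGG or their complement CCGCCC, which may overlap.
Itgb1, chr19:73602027-73602276, plus strand: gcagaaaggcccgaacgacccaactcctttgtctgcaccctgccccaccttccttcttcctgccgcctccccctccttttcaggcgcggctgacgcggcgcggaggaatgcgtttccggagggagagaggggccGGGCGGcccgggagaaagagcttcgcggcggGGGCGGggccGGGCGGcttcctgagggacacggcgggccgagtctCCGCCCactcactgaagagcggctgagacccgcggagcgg
Lamc1, chr13:68051987-68052236, minus strand: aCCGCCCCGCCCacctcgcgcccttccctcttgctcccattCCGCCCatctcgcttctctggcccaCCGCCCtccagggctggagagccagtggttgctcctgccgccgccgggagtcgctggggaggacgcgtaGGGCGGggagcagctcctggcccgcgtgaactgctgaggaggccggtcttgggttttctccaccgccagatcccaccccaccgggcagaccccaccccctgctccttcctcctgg
Lama5, chr3:187695975-187696224, minus strand: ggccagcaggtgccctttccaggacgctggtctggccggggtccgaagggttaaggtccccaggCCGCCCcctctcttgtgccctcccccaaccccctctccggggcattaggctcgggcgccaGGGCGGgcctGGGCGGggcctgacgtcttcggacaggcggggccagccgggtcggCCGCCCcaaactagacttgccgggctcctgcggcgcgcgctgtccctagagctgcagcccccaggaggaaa
Lama2, chr1:19491896-19492145, plus strand: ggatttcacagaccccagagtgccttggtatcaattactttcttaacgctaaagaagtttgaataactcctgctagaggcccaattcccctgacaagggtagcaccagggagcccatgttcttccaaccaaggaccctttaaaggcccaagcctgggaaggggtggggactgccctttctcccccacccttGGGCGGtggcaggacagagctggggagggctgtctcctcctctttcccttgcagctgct
Itgb1 has 4 GC boxes and 28 CpG dinucleotides in this window, Lamc1 5 and 19, Lama5 4 and 20, and Lama2 1 and 2. RefSeq promoters were matched for 26 of the 35 members. A GC box stood in 9 of 16 windows of members tested (56.2%) and in 4 of 10 windows of members under the filter (40.0%), beside 30.5% of all 33469 promoter windows. The median number of CpG dinucleotides was 13 in the members tested, 5.5 in the members under the filter and 5 in all windows. The letters are a description of these windows. Letters and levels did not go together in every member: Itga9, listed at 0 reads, has 16 CpG dinucleotides and 2 GC boxes. Itgb5, at 297 FPKM, has 33 CpG dinucleotides but no GC box. Whether these letters bear on the levels was not tested.

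Among laminin receptors, Itga7, the subunit typical of muscle, was the most abundant alpha subunit of all. It had 209 and 168 FPKM in the PAGln libraries and 173 and 202 FPKM in the control libraries. PAGln 1 and control 2 were the high libraries and the groups overlapped, with a log2 fold change of 0.0050 on the log2(FPKM + 1) scale (SE 0.15). Itga3, which with Itgb1 binds the Lama5 laminins, had 113 and 99.7 FPKM with PAGln and 126 and 112 FPKM in controls. PAGln 2 was the lowest library and PAGln 1 lay between the controls, and the log2 fold change was -0.16 with an SE of 0.12 (adjusted p = 0.9995 by limma, as for every member tested). Itga6, a broad laminin receptor subunit, had 42.73 and 42.68 FPKM with PAGln and 49.9 and 39.6 FPKM in controls. The PAGln libraries thus stood between the 2 controls. Itgb4, the beta subunit that joins Itga6 in the hemidesmosomes of epithelia, had 13 and 20 reads with PAGln and 19 and 20 reads in controls, a mean of 0.185 FPKM, so that Itgb1 was the abundant partner of Itga6 here.

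Of the collagen receptors, Itga11, a fibrillar collagen receptor subunit of mesenchymal cells, led with 65.5 and 73.1 FPKM in the PAGln libraries and 85.4 and 71.8 FPKM in the control libraries. Control 1 stood above the other libraries, which lay close together. Its log2 fold change was -0.18 (SE 0.13), with the smallest unadjusted p among the members by limma at 0.230. Itga1, which prefers network-forming collagen, had 12.8 and 15.9 FPKM with PAGln and 18.9 and 11.01 FPKM in controls, and both extremes were control libraries. Its gene span holds Pelo on the same strand, a gene with a mean of 43.5 FPKM, and whether counting used the strand or split such reads is not given. Itga10, the subunit typical of cartilage, had a mean of 3.85 FPKM. Itga2, the collagen receptor subunit of platelets and epithelia, had 2 reads, both in PAGln 1, although its gene lies 30257 bases from Itga1 on the same strand.

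Of the subunits that recognise RGD, Itga5, the fibronectin receptor, had 78.6 and 70.7 FPKM with PAGln and 73.3 and 79.2 FPKM in controls. Itgav, which pairs with several beta subunits, had 49.2 and 60.0 FPKM with PAGln and 65.6 and 49.1 FPKM in controls. Itga8, a subunit of smooth muscle and mesangial cells that binds nephronectin, had 44.4 and 49.3 FPKM with PAGln and 51.1 and 40.9 FPKM in controls. In both Itgav and Itga8 control 1 was highest, PAGln 2 next and control 2 lowest, so the groups overlapped. Fibronectin itself, Fn1, was far more abundant than its receptor, with 1552 and 1879 FPKM in PAGln libraries and 1819.5 and 1413 FPKM in control libraries.

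Itga4, which pairs with Itgb1 to bind VCAM1 and fibronectin and is best known from leukocytes, had 14.2 and 16.0 FPKM in the PAGln libraries and 16.7 and 9.24 FPKM in the control libraries. Control 2 stood apart as the low library. The log2 fold change was 0.25 (SE 0.27), and it was -0.14 without control 2. Itgae, the subunit of intraepithelial lymphocytes, had 1.68 and 1.70 FPKM with PAGln and 2.16 and 1.81 FPKM in controls, from 90 and 92 reads against 127 and 108 reads. Both PAGln libraries lay under both controls, with a log2 fold change of -0.15 (SE 0.20). Its span overlaps 5 other genes, of which Ncbp3 had a mean of 12.3 FPKM and Camkk1 6.57 FPKM, and its beta partner Itgb7 had 2 and 5 reads with PAGln and 2 and 2 reads in controls.

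Itgb1 (chromosome 19 from 61677542 to 61725535, plus strand, in the tables' coordinates, whose build is not given) had 905 and 827 FPKM in the PAGln libraries and 832 and 781 FPKM in the control libraries. PAGln 1 was highest and control 2 lowest, while PAGln 2 and control 1 were close to each other. Its log2 fold change was 0.10, with an SE of 0.13 and a 95% confidence interval of -0.22 to 0.42. Itgb5, a vitronectin receptor subunit that pairs with Itgav, was the next beta subunit, with 320 and 253 FPKM with PAGln and 291 and 323 FPKM in controls, and a log2 fold change of -0.11 (SE 0.15) that was 0.061 without PAGln 2. The tables give its locus the biotype processed transcript rather than protein-coding. Itgb8, the subunit through which Itgav activates latent TGF-beta, was the most uneven of the 20 members tested: 5.41 and 7.91 FPKM with PAGln and 7.58 and 3.85 FPKM in controls, a 2.05-fold gap between the highest and lowest library. PAGln 2 and control 1 were high and PAGln 1 and control 2 low.

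Itgb1 and Itgb5 exceeded their alpha partners in RNA per length, and Itgb8 did not: it had 0.110 and 0.132 of the FPKM of Itgav with PAGln and 0.115 and 0.0785 in controls. The ratio of Itgb1 to the sum of the 12 alpha subunits that pair with it was 1.43 and 1.38 in the PAGln libraries and 1.25 and 1.26 in the control libraries. Both PAGln ratios lay above both controls, a difference of 0.146 that gave an exact two-sided permutation p of 0.333, the smallest that 2 against 2 libraries allow. Of 26 such sums and ratios compared, many of which share genes, 2 did not overlap between the groups, and the other was the share of Lama5 in laminin alpha FPKM, at 94.80% and 94.88% with PAGln and 95.21% and 95.04% in controls. Itgb5 exceeded Itgav 6.50- and 4.22-fold with PAGln and 4.44- and 6.59-fold in controls. The integrin beta subunits summed to 1231 and 1088 FPKM with PAGln and 1131 and 1108 FPKM in controls, and the alpha subunits to 636 and 602 FPKM against 668 and 621 FPKM. RNA ratios do not give protein ratios, and subunits were not measured as proteins here.

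**Figure D2:**
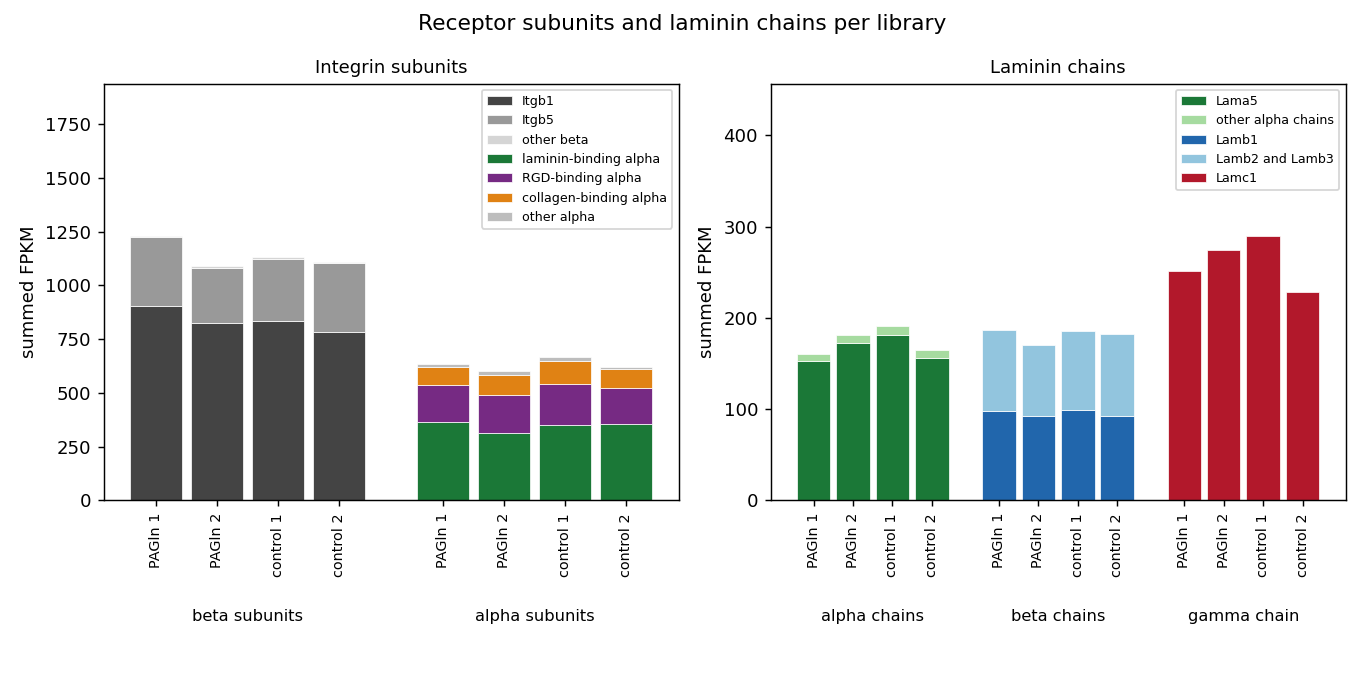
Summed FPKM of integrin beta and alpha subunits (left) and of laminin alpha and beta chains and Lamc1 (right), 1 bar per library, with colours for the genes or ligand classes named in the legends. Laminin-binding subunits fill 51.6% to 57.5% of every alpha bar, and the Lamc1 bars are the tallest of the laminin bars.

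Among laminin alpha chains, Lama5, the widespread chain of adult basement membranes (chromosome 3 from 175553045 to 175601127, minus strand, in the same coordinates), had 152 and 172 FPKM in the PAGln libraries and 181 and 156 FPKM in the control libraries. Control 1 and PAGln 2 were high, and the log2 fold change was -0.056 (SE 0.13), turning to 0.051 without control 1. Lama4, the chain of vessel and muscle laminins, had 8.34 and 9.26 FPKM with PAGln and 9.12 and 8.16 FPKM in controls. Lama2, shown above, had 3 and 2 reads with PAGln and 2 and 0 reads in controls, and Lama1, an embryonic chain, was listed at 0 reads in all 4 libraries. A count of 0 allows up to 3 reads, which for Lama1 is at most 0.0209 FPKM in any library. Lama3 is not analysed here.

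Lamb1, the common laminin beta chain, varied least over the 4 libraries among the 20 members tested. It had 97.9 and 92.1 FPKM in the PAGln libraries and 99.0 and 92.9 FPKM in the control libraries, within 1.075-fold in all. Its log2 fold change was -0.014 (SE 0.10), and turned to 0.0055 with TPM scaling and to 0.013 with quantile normalization. Lamb2, the beta chain of neuromuscular junctions, glomeruli and vessels, had 88.9 and 77.8 FPKM with PAGln and 86.1 and 89.2 FPKM in controls, with PAGln 2 the low library and a log2 fold change of -0.074 (SE 0.11). Lamb3, an epithelial chain, had 14 and 7 reads with PAGln and 6 and 10 reads in controls. The ratio of Lamb1 to Lamb2 was 1.10 and 1.18 with PAGln and 1.15 and 1.04 in controls.

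Lamc1, the gamma chain of most laminins, had 251 and 275 FPKM in the PAGln libraries and 290 and 229 FPKM in the control libraries, so the controls held both extremes. Its log2 fold change was 0.028 (SE 0.15), and it was -0.14 without control 2. Lamc3 had 4 reads, all in PAGln 1.

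Summed by chain, laminin alpha chains summed to 161 and 181 FPKM with PAGln and 191 and 164 FPKM in controls. Beta chains summed to 187 and 170 FPKM with PAGln and 185 and 182 FPKM in controls. Alpha and beta sums were thus close to equal, with an alpha to beta ratio of 0.860 and 1.07 with PAGln and 1.03 and 0.902 in controls. Set as receptor and ligand, the laminin-binding integrin alpha subunits exceeded the laminin alpha chains 2.27- and 1.71-fold with PAGln and 1.83- and 2.15-fold in controls. The groups overlapped in each of these ratios. The list of laminin trimers used here is not complete and held none with Lamc3. Of its 8 trimers with all chains in the tables, 4 had all chains at a mean of at least 1 FPKM. These were Lama5 or Lama4 with Lamb1 or Lamb2 and Lamc1. Of 23 listed integrin pairs, 12 had both subunits at that level, 10 of them with Itgb1 and 2 formed by Itgav with Itgb5 or Itgb8.

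The question put to these adhesion genes is whether their RNA differs after 48 h with the metabolite. None of the 20 members tested had an adjusted p under 0.05 in the limma fit across all 12334 genes tested, where 0 genes did (0%), and none had an unadjusted p under 0.05, beside 2.12% of all genes. limma's voom on the recovered reads also called 0 genes, with 134 genes and 0 members at an unadjusted p under 0.05. By sign 7 members had a positive and 13 a negative log2 fold change, with a median of -0.044, beside 6242 and 6092 of all genes and a median of 0.0021. Both PAGln libraries lay below both controls in 2 members, among them Itgae, and above them in 0, beside 23.1% of all genes with no overlap in either direction. The median size of the log2 fold change was 0.068 in the members and 0.090 in all genes tested.

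**Figure D3:**
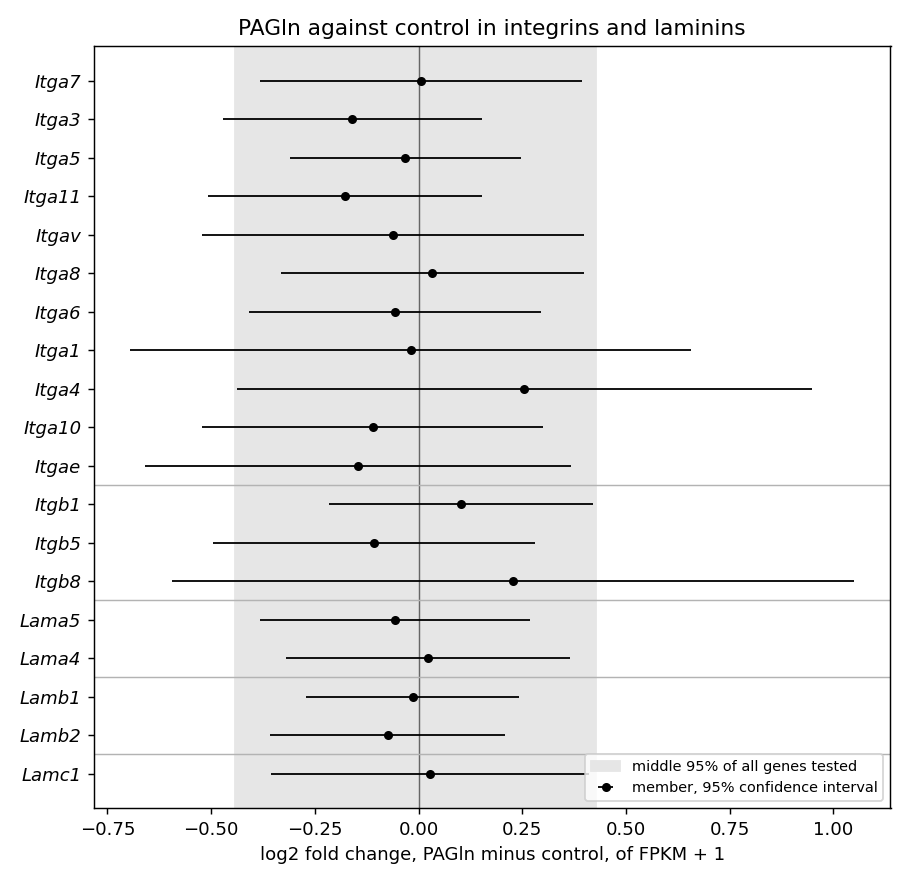
Log2 fold change of FPKM + 1, PAGln minus control, with 95% confidence intervals from limma for 19 of the members tested, grouped by role. The grey band is the middle 95% of the log2 fold changes of all genes tested, from -0.44 to 0.43, and every interval crosses 0.

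The intervals bound what these libraries can show. The median half-width of the members' 95% confidence intervals was 0.36 on the log2 scale, the narrowest role being the laminin beta chains at 0.27, and the intervals of all members reached from -0.70 (Itga1) to 1.05 (Itgb8). The sign of the log2 fold change was the same without each library in turn in 6 of the 20 members, among them Itgb1, higher with PAGln, and Itga3, Itga10, Itga11 and Itgae, lower. These signs are no calls, since no member passed, and the same count over all genes is not given here.

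For Lamc1 and Itga7, libraries of the same group differed by more than counting error. Lamc1 varied by 16.8% between the 2 controls (coefficient of variation), where its reads allow 0.655% from counting alone, and Itga7 varied by 15.4% between the PAGln libraries and by 10.6% between the controls against counting errors of 0.877% and 0.838%. This did not hold in every group of libraries: the PAGln libraries of Itga6 varied by 0.0846%, where its reads allow 1.70% from counting alone. The controls of Itga6 varied by 16.2% against a counting error of 1.58%. The highest library exceeded the lowest by a median of 1.26-fold over the 20 members, and by more than 1.5-fold in Itga1, Itga4 and Itgb8. PAGln 1 and PAGln 2 held the highest value of 2 members each, control 1 of 13 members and control 2 of 3 members. Control 1 held the highest value in 2470 of all 12334 genes tested, and was never the lowest library among the 20 members. Control 2 was the lowest in 9 members, beside 30.3% of all genes. Itga7, Itgb5, Itga5 and Lamb2 ran the other way from a second set. That set held Itgav, Itga8, Itga1, Itga4, Itga10, Itga11, Itgb8, Lama4, Lama5 and Lamc1. PAGln 1 and control 2 were the high libraries in the first set and the low ones in the second, as grouped after their values were seen. The 6 myoblast markers did not move as 1 list. Cdh15, a muscle cadherin, had 97.5 and 81.4 FPKM with PAGln and 80.4 and 106 FPKM in controls, and Myod1, a myogenic factor, had 44.9 and 36.8 FPKM against 36.7 and 43.7 FPKM. PAGln 1 and control 2 were the high libraries in both, as in the first set, and in Des, the muscle intermediate filament, at 4.88 and 3.63 FPKM against 4.81 and 5.70 FPKM. Ncam1, an adhesion molecule and the most abundant marker of the list, had 107 and 121 FPKM with PAGln and 116 and 90.6 FPKM in controls, so that PAGln 1 and control 2 were low, as in the second set. Myf5 was listed at 0 in all 4 libraries, and Chrna1 had a mean of 0.0361 FPKM. The list summed to 255 and 243 FPKM with PAGln and 238 and 246 FPKM in controls. The part of these markers in the spread of the members was not tested.

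**Figure D4:**
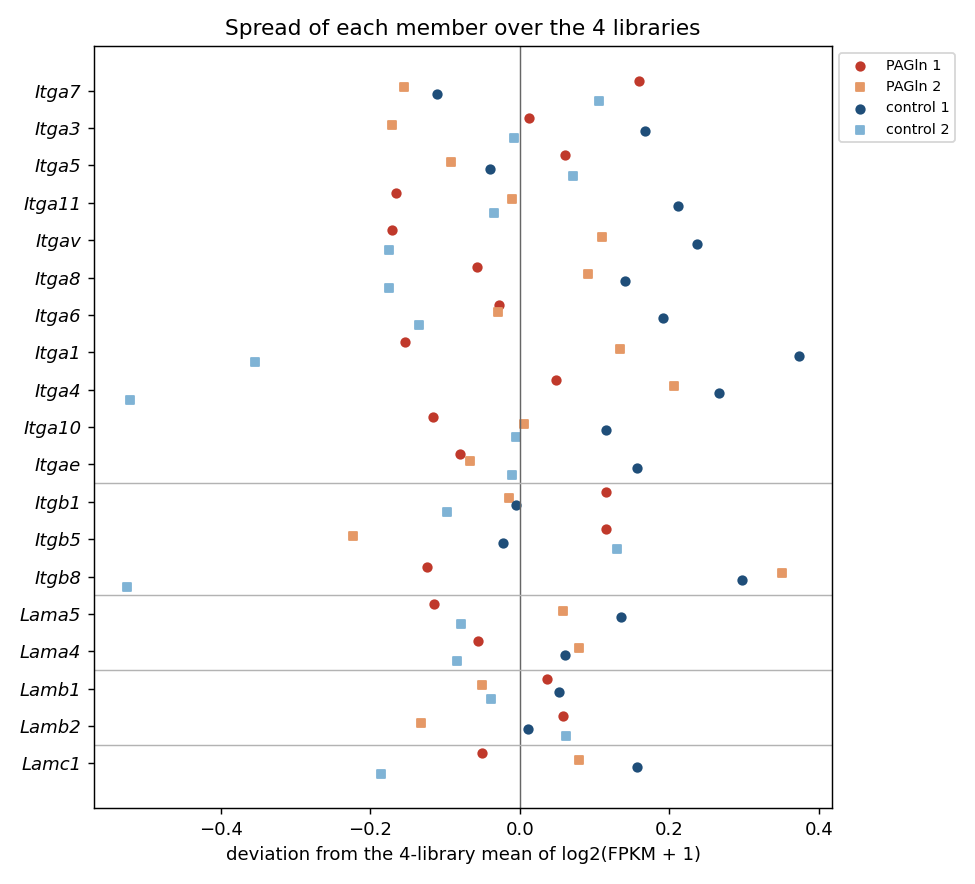
Deviation of each library from the 4-library mean of log2(FPKM + 1) for 19 of the members tested. Control 1 lies furthest to the right in 12 of them, and the libraries of a group lie on opposite sides of 0 for Itga7, Itgb5, Itgb8, Lama5 and Lamc1.

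Genes that work with these receptors and ligands were also without calls. Of 24 tested adaptors and focal adhesion genes, 13 had a positive and 11 a negative log2 fold change, with a median of 0.011 and 0 past the threshold. The members of this list with the smallest unadjusted p were Src, the tyrosine kinase, with 22.8 and 20.1 FPKM in PAGln libraries and 23.8 and 24.8 FPKM in control libraries, Tns3, a tensin, with 33.9 and 35.4 FPKM against 34.8 and 30.1 FPKM, and Sharpin, an inhibitor of integrin activation, with 33.6 and 33.2 FPKM against 35.2 and 35.3 FPKM. Src and Sharpin were among 4 of the 24 genes that did not overlap between groups, beside 23.1% of all genes tested. Their log2 fold changes were -0.18 (SE 0.12) and -0.075 (SE 0.096). Among 11 tested basement membrane partners of laminin 3 were positive and 8 negative, with a median of -0.067 and 0 past the threshold. Ntn4, a netrin that binds laminin gamma chains, had 30.8 and 25.7 FPKM with PAGln and 34.9 and 33.4 FPKM in controls, a log2 fold change of -0.27 (SE 0.13), and adjusted p was 0.9995 by limma for this and every listed gene named below. Npnt, nephronectin, the ligand of Itga8, had 36.4 and 38.3 FPKM with PAGln and 43.0 and 39.3 FPKM in controls. Nid2, a nidogen that links laminin to collagen IV, had 103 and 98.1 FPKM with PAGln and 93.6 and 95.5 FPKM in controls.

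Of 18 tested laminin receptors outside the integrin family and enzymes that glycosylate dystroglycan, 9 were positive and 9 negative, with a median log2 fold change of -0.0046 and 0 past the threshold. Sgca, alpha-sarcoglycan of the dystrophin complex, had 53.3 and 50.5 FPKM with PAGln and 56.0 and 57.3 FPKM in controls. The syndecan Sdc4 had 50.9 and 47.4 FPKM with PAGln and 52.5 and 54.9 FPKM in controls. Of 19 tested integrin ligands other than laminin 7 were positive and 12 negative, with a median of -0.033 and 0 past the threshold. Col1a2, a chain of collagen I, had 413 and 831 FPKM with PAGln and 393 and 441 FPKM in controls, so that PAGln 2 alone stood high. Tgfbi, a secreted adhesion protein, had 91.9 and 106 FPKM with PAGln and 110 and 107 FPKM in controls, and Postn, periostin, had 22.2 and 28.5 FPKM against 32.8 and 25.97 FPKM. Of 8 tested membrane partners 4 were positive and 4 negative, with 0 past the threshold. Cd151, a tetraspanin that associates with laminin-binding integrins, had 8.27 and 21.9 FPKM with PAGln and 6.42 and 8.15 FPKM in controls, with PAGln 2 apart from the rest. Its log2 fold change was 0.82 (SE 0.43). Cav1, caveolin, had 117 and 110 FPKM with PAGln and 107 and 102 FPKM in controls, and Bsg, basigin, had 589 and 475 FPKM against 524 and 694 FPKM.

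The 15 members under the filter held few reads and were not tested. Itga2b, the platelet fibrinogen receptor subunit, had 12 and 9 reads in the PAGln libraries and 27 and 25 reads in the control libraries. Both PAGln libraries lay under both controls, while its partner Itgb3 had 2 reads, both in PAGln 1. The leukocyte subunits Itgal and Itgax had 7 and 15 reads and 9 and 5 reads with PAGln, against 17 and 14 reads and 5 and 5 reads in controls. Their beta subunit Itgb2 had 1 read in each PAGln library and 0 in the controls. Itgad, a further leukocyte subunit, had 0 reads in both PAGln libraries and 8 and 4 in controls, and its gene span in the tables contains that of Itgax on the same strand, so their reads may not be separable. Itgb6, an epithelial subunit, had 5 reads in all, and Itga9, which pairs with Itgb1 in muscle and epithelia, was listed at 0 reads in all 4 libraries, where 3 reads would be at most 0.0711 FPKM. Itgam is not analysed here.

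**Figure D5:**
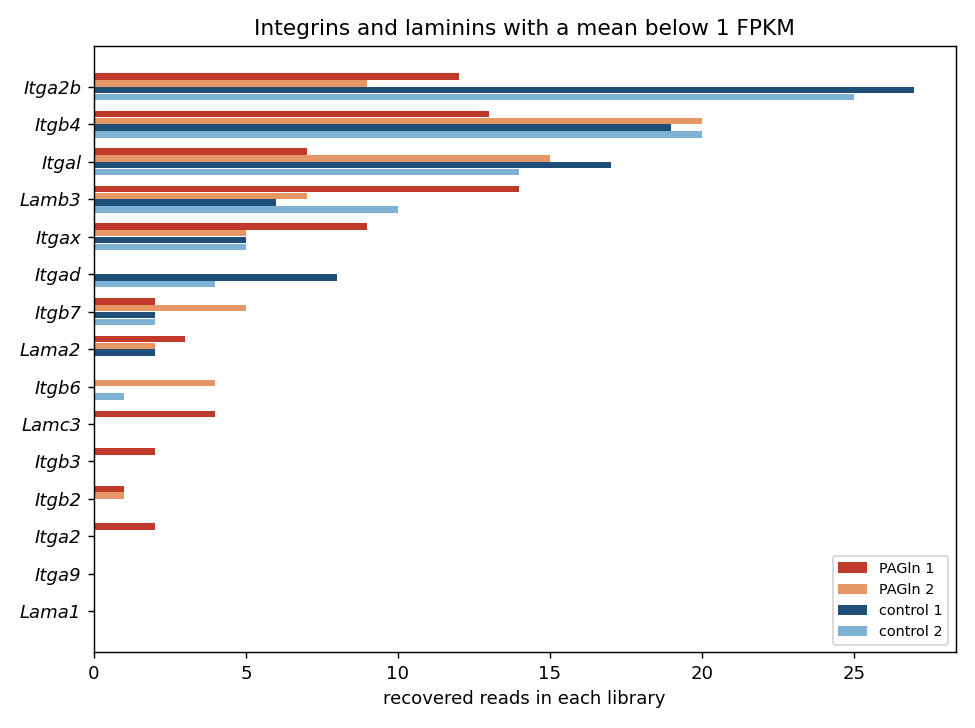
Recovered reads in each library for the 15 integrin and laminin genes with a mean under 1 FPKM, on a linear axis from 0. No gene has more than 27 reads in a library, and Itga9 and Lama1 have no bar.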

How the data were processed

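Each library has a deposited table of gene FPKM that the authors computed. Bowtie 0.12.2 and the human build hg38 are named in the submitters' processing notes, while the tables hold 32883 rat Ensembl identifiers and 895 other loci. Not given in the sources used here: the rat build, the counting tool, strand use and what was done with multi-mapping reads. The gene length in base pairs is a deposited column, counted here as another unit. FPKM times gene length was a whole multiple of 1 step per library for all non-zero values (100%, within 0.01 of a read). The smallest step was taken as 1 read. The recovered reads carry counting error only in their intervals and limits, and reads are not independent molecules.

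Genes with a mean of at least 1 FPKM over the 4 libraries (12334) were fitted with limma 3.58.1 in R 4.3.3 on log2(FPKM + 1), using eBayes (trend) moderation, two-sided and adjusted by Benjamini-Hochberg over all genes tested, threshold 0.05. Fold changes on this scale understate the change of low genes. Errors are SD over 2 libraries or SE from limma. The fit was tested on simulated data. At the threshold it recovered 1.4% of simulated 1.5-fold changes, 28.6% of 2-fold, 79.8% of 4-fold and 91.8% of 8-fold changes. Sums and ratios were computed per library in Python 3.11.15, with exact permutation tests from scipy 1.17.1. Fold changes are given for the 8 members with the largest mean and the 6 with the smallest unadjusted p, and for 3 genes per related list, apart from a member and a listed gene not reported here. Itgb8, Itga1, Fn1, Hprt1, Ncbp3, Camkk1, Pelo and the myoblast, fibroblast and smooth muscle markers were described after their values were seen. Members, lists, sums and ratios were chosen with earlier results of these data known.

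Alternatives were another pseudocount, other filters, TPM scaling, quantile normalization, voom, a replicate block and leaving out each library. voom used the summed recovered reads as library sizes.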

Additional observations from a re-analysis of the deposited data

How the results depend on the processing

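Same-numbered libraries deviated apart (correlation -0.28 over the genes tested), so the replicate numbers were not taken as pairs. Hprt1 went the other way, high in PAGln 1 and control 1 and low in PAGln 2 and control 2, and the cause was not tested. No member passed the threshold under any alternative run, and the smallest adjusted p of a member was 0.6746, for a fit with the crossed pairing below. The number of genes past the threshold, 0 with all 4 libraries, was 7 with the replicate block pairing equal numbers and ran from 1 to 13 without 1 library (13 without PAGln 2), none of them a member. The lone library of a group is then assumed to vary like the other group. Crossing the pairing of the replicate block (PAGln 2 with control 1, PAGln 1 with control 2), an alternative added once the data had been seen, gave 0 genes, and 899 at an unadjusted p under 0.05 against 262 without a block. With 2 libraries a group, crossed pairs must deviate together where same-numbered pairs deviate apart, so this rise is no separate evidence. Among fits with all 4 libraries, single members stood at an unadjusted p under 0.05 by limma in some alternatives. With no filter 1 of 33 members, Itga2b, did, beside 579 of 19226 genes. With the crossed block 1 of 20 members, Itga11, did, beside 899 of 12334 genes. These counts leave out the fits without 1 library. Without control 1, which leaves a lone control, the log2 fold change of Itga4 was 0.65.

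Lamb1 turned from a log2 fold change of -0.014 to 0.0055 with TPM scaling and to 0.013 with quantile normalization. Without 1 library the log2 fold change ran from -0.28 to 0.061 for Itgb5, from -0.14 to 0.20 for Lamc1, from -0.15 to 0.16 for Itga7, from -0.16 to 0.051 for Lama5, from -0.059 to 0.031 for Lamb1, from -0.17 to 0.021 for Lamb2 and from -0.14 to 0.65 for Itga4, so these signs rest on single libraries. The cause was not tested. The median log2 fold change of the members tested was -0.044 and ran from -0.15 without control 2 to 0.041 without control 1. The planned edgeR fit and voom with TMM factors were not run. With 2 libraries a group no exact test of a single ratio can fall under 0.333.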

Other observations

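A locus without a gene symbol, outside the members, is matched in the tables to integrin alpha-11. It lies on chromosome 8 from 67567205 to 67596990 in the tables' coordinates, whose build is not given, with a gene model of 413 bases that ends 18644 bases before the start of Itga11 on the same strand. It held 68 and 54 reads in the PAGln libraries and 84 and 49 reads in the control libraries, or 12.1 and 9.57 FPKM with PAGln and 13.7 and 7.86 FPKM in controls. Whether these reads belong to the transcripts of Itga11, at a mean of 73.9 FPKM, was not tested.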
